A study of Mus musculus with 11 samples.

Results

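Anti-Mullerian hormone, the inhibin and activin subunits, their binding proteins and their receptors were followed across the epithelia of the W/Wv testis. The members were 10 genes, Amh, Amhr2, Inha, Inhba, Inhbb, Fst, Fstl3, Acvr1b, Acvr2a and Acvr2b. All probe sets annotated with only 1 of these symbols were taken, which gave 19 of the 45101 probe sets on the array, and 10 of the 18194 genes that have a probe set of their own. Where a gene has several probe sets, the one with the highest mean log2 signal over the arrays is called its leading probe set.

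RNA was measured in the Sertoli valve (SV, 4 arrays), the rete testis (RT, 3 arrays) and the convoluted seminiferous tubules (ST, 4 arrays). The SV, where tubules open into the RT, could thus be set against both other regions. By the study's methods, ST pieces came from the distal testis, away from RT and SV, so ST is not the tubule next to the SV. All mice were 7-week-old W/Wv animals, Kit mutants whose tubules are depleted of germ cells, so no region was compared with a wild-type testis here. Each array held RNA pooled from 20 testes, which were injected with trypan blue from the efferent ducts and dissected by hand, and the study's methods warn that SV pieces probably carried RT cells. The labels call the arrays biological replicates, and the p-values below measure the spread between such pools.

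Anti-Mullerian hormone (AMH) is secreted by Sertoli cells, makes the Mullerian ducts regress in the male fetus, and acts through its own type II receptor AMHR2. Activins are dimers of inhibin beta subunits, which bind the type II receptors ACVR2A and ACVR2B and signal through the type I receptor ACVR1B to SMAD2 and SMAD3. Inhibins pair a beta subunit with the alpha subunit, oppose activin, and inhibin B from Sertoli cells restrains follicle-stimulating hormone (FSH). Follistatin and the follistatin-like protein FSTL3 bind activins and block them.

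The regions differed in their cell type markers, and rete testis markers were also higher in SV than in ST. Of 17 Sertoli cell markers measured (of 20 listed), 10 were lower in RT than in ST, and the median of the list lay at -2.27 in RT 1, -2.03 in RT 2 and -1.2 in RT 3, in log2 units relative to the ST mean. In SV arrays it lay at -0.59 to -0.07, and in ST arrays at -0.12 to 0.11. The Sertoli cell genes Sox9, Wt1, Gata4 and Cldn11 were not called lower in RT by their leading probe sets, with log2 differences of -0.28, 0.06, -0.32 and -0.15. Of 14 rete testis epithelium markers, 11 were higher in RT and 8 in SV than in ST, and their median stood 4.07 to 5.28 above the ST mean in RT and 1.6 to 2.79 in SV. Summed signals of the Sertoli cell list were 109103 to 145248 in SV, 67205 to 85109 in RT and 133682 to 173054 in ST, and the list's lowest mean signal in RT was 206 (Fshr). Of other lists, 7 of 10 efferent duct, 3 of 7 endothelial, 2 of 5 mesothelium, 1 of 8 macrophage and 1 of 8 germ cell markers were higher in RT than in ST, and the counts higher in SV than in ST were 3, 1, 2, 0 and 1. In RT, 3 of 7 peritubular myoid and 5 of 8 germ cell markers were lower than in ST. Of all genes, 12.5% were called higher and 7.34% lower in RT than in ST, and 2.39% higher in SV. The counts of macrophage and germ cell markers higher in RT were thus no more than the share of all genes. In SV, none of these markers was called lower than in ST by its leading probe set. The germ cell list median in SV minus ST was -1.16, and a second Dazl probe set was called lower, at -1.19. None of 5 Leydig cell markers was called in either region. In such pieces, fewer cells of a type and less RNA per cell cannot be told apart. The part that the mix of cells has in the results below was not tested.

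With signals as deposited, the main pattern in leading probe sets was a split of the family between the RT and the tubules. Amh, Inha and Inhbb were lower in RT than in ST, whereas Inhba and the receptor genes Acvr1b and Acvr2a were higher in RT. The higher calls were lost after median centring of the arrays, at 0.92 for Inhba, 0.63 for Acvr1b and 0.81 for Acvr2a. No second probe set of these genes was called in RT minus ST. In SV, Fstl3 was the 1 member called against ST, at 2.32-fold higher. Signals are MAS5 values scaled by the authors, and a difference was called when it exceeded 2-fold with an adjusted p under 0.05 (limma, Benjamini-Hochberg over all 45101 probe sets).

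**Figure D1:**
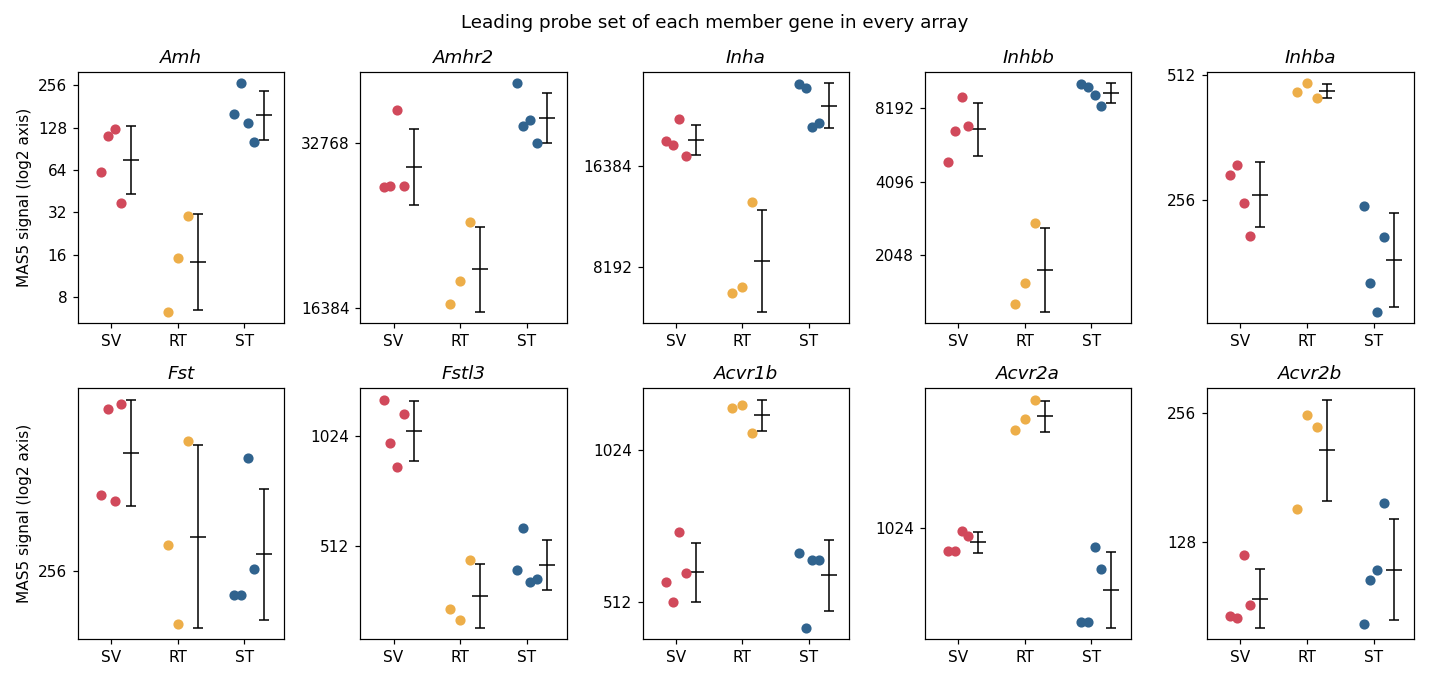
MAS5 signal of the leading probe set of each member gene (log2 axis, scaled separately per gene) in the 4 SV, 3 RT and 4 ST arrays, with the mean and SD of the log2 signal as black bars. Amh, Inha and Inhbb lie lowest in RT with no overlap, Acvr1b and Acvr2a lie highest in RT, and all 4 SV arrays exceed the other 7 in Fstl3.

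Of the 10 genes, 1 was higher and none lower in SV than in ST by the leading probe set, against 2.39% of all genes called higher and 0.0769% called lower. With all 19 probe sets, 1 was higher (1.5% of all probe sets) and 0 lower (0.0665%), and at an unadjusted p under 0.05 these were 5 and 3. In RT against ST, 3 genes were higher and 3 lower, where 12.5% and 7.34% of all genes were called, and 3 and 5 of the 19 probe sets, against 10.2% and 5.48% of all probe sets. In SV against RT, 4 genes were higher and 2 lower, against 4.39% and 6.41% of all genes, and 6 and 3 of the 19 probe sets, against 2.95% and 4.99%. The F-test over the regions (limma, adjusted p under 0.05) was passed by 9 of the 10 genes, all but Fst, and by 30.4% of all genes, and by 12 of the 19 probe sets, against 21.3%. The median log2 difference of the 10 genes was -0.10 in SV against ST, -0.10 in RT against ST and 0.51 in SV against RT, where all genes had 0.02, 0.08 and -0.04.

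**Figure D2:**
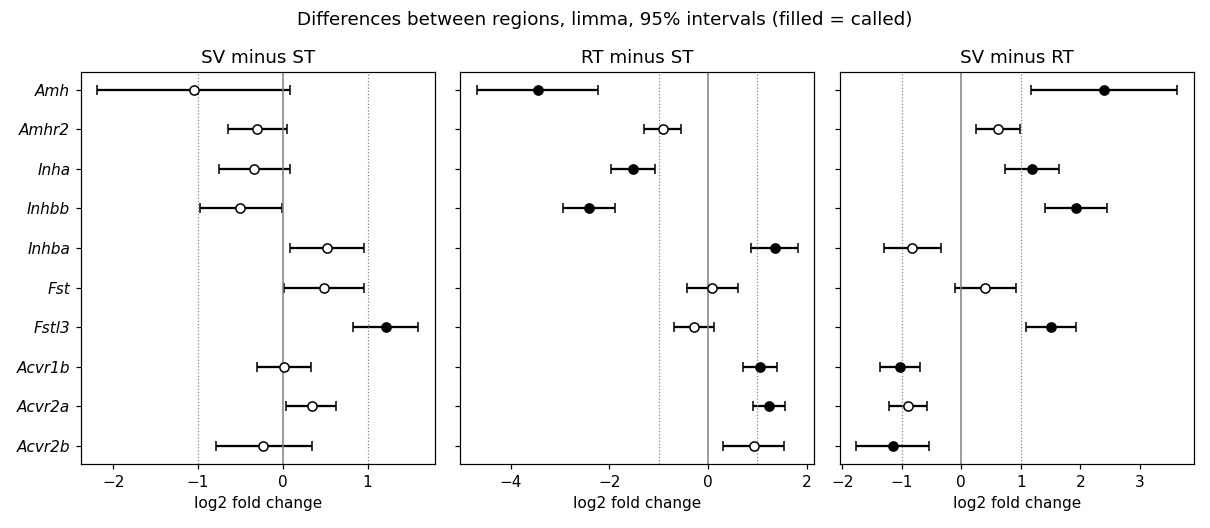
Log2 fold change of the leading probe set of each member gene in SV minus ST, RT minus ST and SV minus RT, with the 95% interval from limma. Filled points are called, and dotted lines mark a 2-fold difference. Only Fstl3 is filled in SV minus ST, and the Amh, Inha and Inhbb points lie left of 0 in RT minus ST while Inhba, Acvr1b and Acvr2a lie right of it.

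Among the ligand genes, Amh encodes the hormone itself. Its signal was 62.1, 111.5, 124.7 and 37.3 in the 4 SV arrays, 6.31, 15.1 and 30.3 in the 3 RT arrays, and 160.9, 264.6, 138.7 and 101.0 in the 4 ST arrays. Every RT array was below every SV and ST array, and SV overlapped ST. Amh was lower in RT than in ST (log2 fold change -3.45 ± 0.57 standard error, limma adjusted p = 0.00054), and SV exceeded RT by 2.40 ± 0.57 (adjusted p = 0.0129). In SV against ST, the log2 difference was -1.05 ± 0.53 (adjusted p = 0.427), with a 95% interval of -2.19 to 0.09. The signal was dim, below the array's median in 5 of 11 arrays, so that the size of these changes is uncertain. The RT minus ST value was -2.29 with a floor of 32 on the signal and -1.98 with 32 added to it, both called, and -1.96 and not called with replicates 3 and 4 alone (limma adjusted p = 0.218). Without RT replicate 1 the SV against RT difference was 1.81 and no longer called, and with the floor of 32 it was 1.24 (adjusted p = 0.108).

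Inha encodes the alpha subunit that makes a dimer an inhibin. Its signal was 19431, 18858, 22517 and 17550 in SV, 6871, 7166 and 12756 in RT, and 28496, 27735, 21269 and 21938 in ST. All RT arrays were below the others, RT 3 the least so, while SV 3 lay within the range of ST. Inha was 2.88-fold lower in RT than in ST (-1.52 ± 0.21, adjusted p = 0.000127 by limma) and 2.28 times as high in SV as in RT (1.19 ± 0.21, adjusted p = 0.00216). In SV against ST the difference was -0.34 ± 0.19 (adjusted p = 0.511). The RT minus ST difference was -2 with replicates 1 and 2 alone and -0.76 with replicates 3 and 4 alone, which hold 1 RT array. For SV minus RT these values were 1.45 and 0.64.

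Inhbb encodes the beta B subunit of inhibin B and activin B, and had 2 probe sets. The leading one gave 4907, 6580, 9104 and 6917 in SV, 1286, 1572 and 2758 in RT, and 10275, 10037, 9307 and 8370 in ST. RT arrays were again lowest and did not overlap the others, and of the SV arrays only SV 3 reached the range of ST. The RT signal was 5.34-fold lower than in ST (-2.42 ± 0.24, limma adjusted p = 1.2e-05), and that of SV was higher than that of RT (1.92 ± 0.24, adjusted p = 0.000314). In SV against ST the difference was -0.50 ± 0.22 (adjusted p = 0.362). The second probe set was also called in both comparisons with RT, at -1.79 ± 0.22 in RT minus ST (limma adjusted p = 4.94e-05) and 1.28 ± 0.22 in SV minus RT (adjusted p = 0.00172).

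Inhba encodes the beta A subunit of activin A and ran the other way. Its leading probe set gave 294.7, 311.2, 252.1 and 209.2 in SV, 466.0, 488.1 and 449.7 in RT, and 247.1, 161.6, 138.0 and 208.4 in ST. All 3 RT arrays were above all others and close to each other, and SV overlapped ST. Inhba was 2.54-fold higher in RT than in ST (1.35 ± 0.22, limma adjusted p = 0.000488). In SV it was below RT by under 2-fold (-0.83 ± 0.22, adjusted p = 0.0229, not called) and above ST by 0.52 ± 0.20 (adjusted p = 0.267). The second Inhba probe set was dim, at 3.6 to 29.2 in all arrays, and was not called. Median centring of the arrays put the RT difference at 0.92, under 2-fold.

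The changes of the ligand genes were set against each other within each array, for 3 pairs chosen after their values were seen and 9 tests in all. The log2 ratio of Inhbb to Inha, relative to its ST mean, was -0.61, -0.14, 0.07 and 0.04 in SV, -1.04, -0.81 and -0.83 in RT, and -0.09, -0.09, 0.19 and -0.01 in ST. All 3 RT arrays were below the SV and ST arrays. The difference in RT minus ST was -0.89 (two-sided exact permutation p = 0.0286, the smallest possible here, adjusted p = 0.0515, above 0.05). The values of the Amh to Inha ratio are not given, since the Amh signals in RT were dim. The ratio of Inhba to Inhbb was 1.63, 1.28, 0.51 and 0.64 in SV, 4.22, 4 and 3.07 in RT, and -0.39 to 0.36 in ST. Its arrays ordered RT, SV and ST without overlap, with differences of 1.01 in SV minus ST and 3.76 in RT minus ST (exact permutation p = 0.0286 each, adjusted p = 0.0515). Inhba and Inhbb each separated RT from ST, in opposite directions. The RT minus ST p-value of their ratio was therefore bound to be the smallest possible, and adds nothing. The adjustment over 9 tests does not cover the choice of pairs. Neither Inhba nor Inhbb alone was called in SV against ST.

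**Figure D3:**
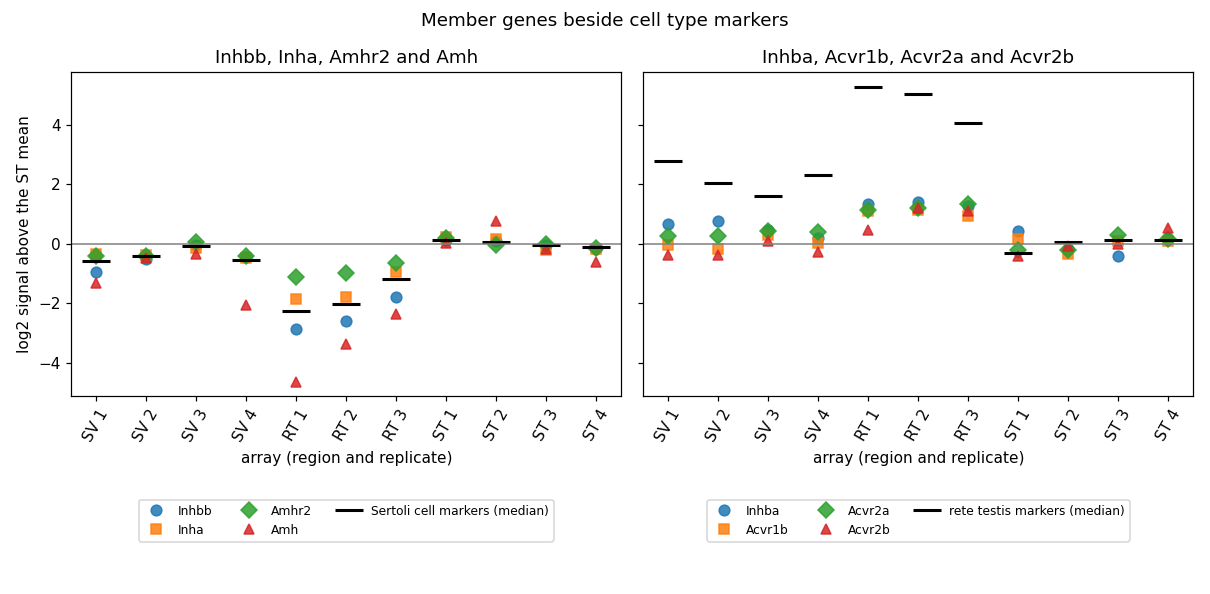
Log2 signal above the ST mean in each of the 11 arrays for Inhbb, Inha, Amhr2 and Amh beside the median of 17 Sertoli cell markers (left), and for Inhba, Acvr1b, Acvr2a and Acvr2b beside the median of 14 rete testis epithelium markers (right). On the left RT 3 lies nearest to 0 of the RT arrays in the markers and the 4 genes, and on the right the rete marker median in RT lies at 4.07 to 5.28 while the 4 genes stay below 2.

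In the leading probe sets, the order of the 3 RT arrays was shared with the Sertoli cell markers: RT 3, with the marker median of -1.2, had the highest Amh, Inha, Inhbb and Amhr2 signals of the 3, and RT 1, with the lowest median, the lowest. In the other probe sets of Inhbb and Amhr2, RT 3 was again highest but RT 2 lowest. The SV array with the highest marker median, SV 3 at -0.07, also had the highest of each of these 4 genes in SV by the leading probe sets, but the second Inhbb probe set was lowest in SV 3, at 772.1. These arrays share dissection and scaling. RT 3 was also the only RT array among replicates 3 and 4. The Actb 3′ over 5′ signal ratio was 1.95 in RT 3, against 1.43 in RT 1 and 1.32 in RT 2. In SV 3 that ratio was 2.12, the highest of all arrays. Replicate group, this ratio and the mix of cells cannot be told apart here.

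Amhr2, the type II receptor for AMH, had 3 probe sets. The leading one gave 27251, 27419, 37714 and 27346 in SV, 16618, 18306 and 23499 in RT, and 42175, 35299, 36128 and 32729 in ST, and it was the brightest of all probe sets in 5 of the 11 arrays. RT arrays were below all others, and SV 3 lay among the ST arrays. In RT minus ST the log2 fold change was -0.92 ± 0.17 (limma adjusted p = 0.00135), under 2-fold and so not called. The third and dimmest probe set gave 10008, 9374, 12374 and 11333 in SV, 4789, 4581 and 6997 in RT, and 18439, 15320, 13727 and 14966 in ST. Here the 3 regions did not overlap at all, with RT lowest and SV between. It was called 2.90-fold lower in RT than in ST (-1.54 ± 0.17, limma adjusted p = 2.56e-05), and its SV against RT difference sat at the fold threshold (1 ± 0.17, adjusted p = 0.0018). In SV minus ST it was -0.54 ± 0.16 (adjusted p = 0.113). The remaining probe set, with 20855 to 27680 in SV, 15576 to 18587 in RT and 24363 to 32823 in ST, changed by -0.72 ± 0.15 in RT minus ST (adjusted p = 0.00284). With median centring of the arrays, the leading probe set was at -1.34 and the remaining one at -1.15, both called. The 2 brighter probe sets carry the suffix _x_at, which the array's maker gives to sets whose probes can match other transcripts. The part of that, or of their high signal, in their smaller change was not tested.

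A stretch of the Amhr2 promoter is shown because AGGTCA is a sequence that the nuclear receptor NR5A1, a regulator of Sertoli cell hormone genes, can bind. It spans chr15:102445125-102445154 on the plus strand of GRCm38.p6, from the RefSeq start-site windows, with the match in capitals (position -230 from the annotated start). That start lies inside the annotated span of the gene. In all, 14.0% of 32851 windows of 250 bases hold AGGTCA on either strand, so the match is a description only.
Amhr2: caccttcttccaAGGTCAgtaggggtagag

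The 250 bases before the start of Inhbb, the member with the lowest adjusted p in RT against ST, are printed with each CG in capitals (chr1:119422249-119422498, minus strand, GRCm38.p6). They hold 21 CG, where the median of all windows is 6 and the upper quartile 16, and neither AGGTCA nor TATAAA on either strand.
Inhbb: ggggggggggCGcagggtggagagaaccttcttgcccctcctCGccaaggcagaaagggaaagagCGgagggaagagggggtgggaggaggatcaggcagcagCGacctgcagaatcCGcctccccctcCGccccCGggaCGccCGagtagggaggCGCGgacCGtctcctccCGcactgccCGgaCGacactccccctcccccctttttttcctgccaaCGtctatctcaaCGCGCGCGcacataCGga

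Of the binding protein genes, Fstl3 separated SV from both other regions. Fstl3 gave 1290, 981.9, 846.1 and 1176 in SV, 346.0, 322.2 and 470.6 in RT, and 441.9, 574.2, 407.9 and 417.2 in ST. All 4 SV arrays were above all 7 others, and RT overlapped ST. Fstl3 was 2.32-fold higher in SV than in ST (1.22 ± 0.18, limma adjusted p = 0.00232) and 2.83-fold higher than in RT (1.5 ± 0.19, adjusted p = 0.000349). In RT minus ST the difference was -0.28 ± 0.19 (adjusted p = 0.334). Among the marker lists, the mesothelium median, in log2 units relative to the ST mean, was 0.14 to 1.13 in SV, -0.12 to 0.13 in RT and -0.25 to 0.23 in ST. The summed signal of that list was instead highest in RT, at 1406 to 1646, with 495 to 987 in SV and 283 to 434 in ST. The Leydig cell median was -0.36 to 1.23 in SV, -0.26 to 0.51 in RT and -0.6 to 0.53 in ST. The part of these cells in the Fstl3 difference was not tested. The SV against ST difference was 1.12 to 1.33 when single arrays were left out, and called in each. With replicates 3 and 4 alone it was 1.27 and not called. The call was also lost by the methods' t-test with adjusted p.

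The Fstl3 window is shown for its motifs (chr10:79777024-79777273, plus strand, GRCm38.p6). Capitals mark AGGTCA, read on the opposite strand as TGACCT, at position -200 from the start, and TATAAA, read on the opposite strand as TTTATA, at -29. TATAAA occurs in 12.4% of all windows on either strand.
Fstl3: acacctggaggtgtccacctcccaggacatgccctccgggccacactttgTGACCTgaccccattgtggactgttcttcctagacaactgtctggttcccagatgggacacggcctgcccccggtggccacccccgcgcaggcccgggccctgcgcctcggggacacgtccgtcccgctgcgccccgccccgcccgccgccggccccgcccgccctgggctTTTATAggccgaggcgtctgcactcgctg

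Fst, the gene of follistatin, did not separate the regions. Its leading probe set gave 328.8, 436.8, 322.4 and 444.8 in SV, 279.2, 215.3 and 393.3 in RT, and 236.8, 236.2, 372.3 and 257.7 in ST. The groups overlapped, and the F-test missed the threshold (limma adjusted p = 0.268). In SV minus ST, its log2 difference was 0.49 ± 0.22 (adjusted p = 0.365), with an interval of 0.01 to 0.96. The second probe set had 0.62 ± 0.27 (adjusted p = 0.346).

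The activin receptors were highest in RT. Acvr2a, a type II receptor, gave 914.7, 915.2, 1010 and 986.6 in SV, 1655, 1752 and 1924 in RT, and 646.3, 646.6, 933.7 and 839.0 in ST. RT arrays lay far above the rest, and the lowest SV arrays fell just below the highest ST array. Acvr2a was 2.34-fold higher in RT than in ST (1.23 ± 0.15, limma adjusted p = 4.73e-05). In SV it was under RT by -0.89 ± 0.15 (adjusted p = 0.00151, under 2-fold) and above ST by 0.34 ± 0.14 (adjusted p = 0.289). The second Acvr2a probe set did not follow, at 160.5 to 272.9 in SV, 201.1 to 251.8 in RT and 199.5 to 250.1 in ST.

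Acvr1b, the type I receptor of activin, gave 560.3, 511.4, 705.8 and 585.5 in SV, 1243, 1260 and 1106 in RT, and 642.3, 455.3, 621.2 and 620.0 in ST. RT was above all others, and SV and ST overlapped. It was 2.07-fold higher in RT than in ST (1.05 ± 0.16, limma adjusted p = 0.000267), and in SV lower than in RT (-1.03 ± 0.16, adjusted p = 0.000957). The SV minus ST difference was 0.02 ± 0.15, with an interval of -0.30 to 0.33. Both calls lay near 2-fold: the RT minus ST value was 0.94 without ST replicate 2, and the SV minus RT value was -0.97 without SV replicate 2 and -1 without RT replicate 2, none of them called. The second Acvr1b probe set was dim, below the median of every array.

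Acvr2b, the other type II receptor, gave 85.7, 84.9, 118.9 and 91.2 in SV, 152.8, 253.0 and 237.0 in RT, and 82.0, 104.0, 109.9 and 157.5 in ST. SV arrays were below all RT arrays, and RT 1 fell below the highest ST array. It was lower in SV than in RT (-1.15 ± 0.28, limma adjusted p = 0.0162), at -1.01 and not called without RT replicate 2 and -1.06 without RT replicate 3. That call was also lost with quantile normalization (-0.89), median centring (-0.84) and 32 added to the signal (-0.94). In RT minus ST it was 0.92 ± 0.28 (adjusted p = 0.0289, under 2-fold). The second probe set had 65.7, 118.9, 14.9 and 62.8 in SV, 189.9, 275.7 and 115.4 in RT, and 65.7, 57.4, 80.0 and 84.3 in ST, with SV minus RT at -1.81 ± 0.57 (adjusted p = 0.0499). The call of this probe set was lost in 9 of the 11 fits that each left out 1 array. The third was dim, at 1.4 to 8.1.

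After median centring of the arrays, no member was called higher in RT than in ST and 7 rather than 5 member probe sets were lower. The RT minus ST values became 0.63 for Acvr1b and 0.81 for Acvr2a, since this scaling moved the median of all probe sets in RT minus ST to -0.29, against 0.13 in the signals as deposited.

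The windows of both RT-high receptors were rich in CG. That of Acvr1b holds 42 CG, more than 99.1% of all windows, and that of Acvr2a 49, more than 99.9%. The window of Inhba, also higher in RT, holds only 3 CG, more than 29% of windows, though its start lies inside the annotated gene span. That of Inhbb, lower in RT, holds 21. The Acvr2a window is printed with CG in capitals (chr2:48813859-48814108, plus strand, GRCm38.p6).
Acvr2a: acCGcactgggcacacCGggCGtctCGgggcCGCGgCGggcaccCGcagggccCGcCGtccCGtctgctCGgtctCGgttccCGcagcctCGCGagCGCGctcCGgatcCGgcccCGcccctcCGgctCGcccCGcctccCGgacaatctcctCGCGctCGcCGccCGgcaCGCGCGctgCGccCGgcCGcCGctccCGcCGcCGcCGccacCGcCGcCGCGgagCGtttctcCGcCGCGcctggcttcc

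Other genes of the pathway were taken as 7 lists of 60 genes, of which 56 were measured. In SV 3 were higher and 0 lower than in ST, in RT 11 were higher and 3 lower than in ST, and in SV 2 were higher and 3 lower than in RT, beside the shares of all genes given above. The activin-side transducers Smad2 and Smad3 were not called in any comparison, with log2 differences of -0.23 and 0.11 in SV minus ST and -0.28 and -0.09 in RT minus ST. Of the 8 Smad genes, the 3 higher in RT were Smad1 and Smad5, which carry the signals of AMH and of bone morphogenetic proteins (BMPs), and the inhibitory Smad6. Smad6 averaged 180 ± 62 in SV, 756 ± 111 in RT and 91 ± 16 in ST (SD, n = 4, 3 and 4), 3.06 ± 0.28 higher on the log2 scale in RT than in ST (limma adjusted p = 6.84e-06) and -2.14 ± 0.28 in SV minus RT (adjusted p = 0.000418). Smad1 averaged 1301 ± 339 in SV, 2139 ± 293 in RT and 890 ± 129 in ST, and rose in RT by 1.27 ± 0.20 (adjusted p = 0.00035), and Smad5 rose by 1.28 ± 0.19 (adjusted p = 0.000199), though 1 of its 3 probe sets did not pass, at 0.78.

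Of 9 measured Smad feedback and target genes, 5 were higher in RT than in ST and none lower, with a list median of 1.19, against 0.08 for all genes. They were Pmepa1 (1.51 ± 0.22) and Skil (1.21 ± 0.15), which encode feedback inhibitors of Smad2 and Smad3, and Id1 (1.32 ± 0.20), Id2 (1.27 ± 0.15) and Id3 (1.19 ± 0.16), known BMP targets. Id2 averaged 2550 ± 441 in SV, 4435 ± 382 in RT and 1841 ± 178 in ST. A second Skil probe set had 0.24 and was not called. In SV, none of the 9 was called against ST, with differences of -0.05 to 0.60. Under median centring, 4 genes of the pathway lists rather than 11 were higher in RT than in ST, and 6 rather than 3 were lower. This scaling shifts all probe sets alike, and took Inhba in RT minus ST from 1.35 to 0.92. Skil, Id1, Id2, Id3, Smad1 and Smad5, none of them above 1.32 as deposited, therefore also fell under 2-fold.

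Among 10 other receptors, the BMP type I receptor gene Bmpr1b stood apart. It averaged 531 ± 294 in SV, 3998 ± 217 in RT and 37 ± 26 in ST. It was called higher than in ST in SV (limma adjusted p = 0.00267) and in RT (adjusted p = 6.47e-06), but no fold change is given, since its ST mean lay below the median signals of the ST arrays (65.8 to 85.1). Its 2 dimmer probe sets were not called in SV. The AMH type I receptor genes Acvr1 and Bmpr1a were not called, with differences of 0.76 and 0.07 in SV minus ST and 0.38 and 0.34 in RT minus ST. Acvr1 in SV minus ST missed only the 2-fold threshold (limma adjusted p = 0.0364), and its dimmest probe set had -0.3. Of 8 extracellular antagonists, Fstl1 was higher in SV than in ST (1.31 ± 0.16, limma adjusted p = 0.000627), at 3372 ± 650 in SV, 2388 ± 381 in RT and 1347 ± 137 in ST, and the dim Fstl5 was lower in RT (-1.92 ± 0.49). By its leading probe set, none of 5 other activin family ligands and 4 proprotein convertases was called in any comparison, whereas another probe set of the convertase gene Pcsk5 was called in RT minus ST, at 1.39.

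**Figure D4:**
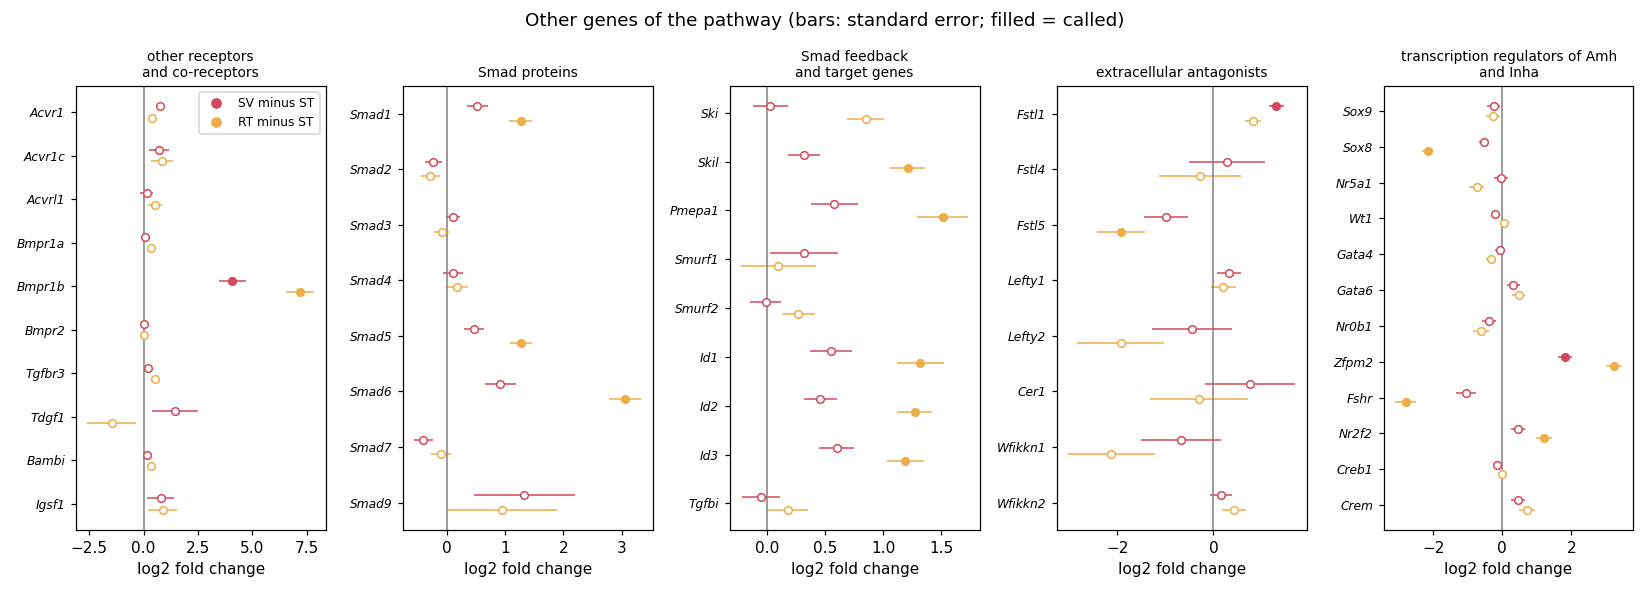
Log2 fold change of the leading probe set in SV minus ST (red) and RT minus ST (yellow), with the standard error, for 5 of the 7 pathway lists. Filled points are called with signals as deposited. Smad1, Smad5, Smad6, Id1, Id2, Id3, Pmepa1 and Skil are filled in RT minus ST and none of them in SV minus ST.

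Among 12 measured regulators of Amh and Inha, the FSH receptor gene Fshr averaged 691 ± 281 in SV, 206 ± 96 in RT and 1345 ± 92 in ST, and the Sertoli cell factor gene Sox8 1715 ± 231 in SV, 561 ± 95 in RT and 2486 ± 301 in ST. Both fell in RT, by 2.80 and 2.16 on the log2 scale (limma adjusted p = 2.31e-05 and 1.29e-06). Sox9, Nr5a1, Wt1 and Gata4, whose products drive Amh, were not called in any comparison by their leading probe sets, while a second Nr5a1 probe set, very dim at a mean signal of 7.34, was called in SV minus RT, at 3.18. Zfpm2, a cofactor of GATA proteins, exceeded ST by 1.81 ± 0.21 in SV (limma adjusted p = 0.000412) and by 3.24 ± 0.23 in RT (adjusted p = 9.59e-07), but its second probe set missed the call in SV, at 0.81. Nr2f2, a nuclear receptor gene, was higher in RT (1.21 ± 0.23), with 1 dim probe set of the opposite sign at -0.29. Fshr and Sox8 are also in the Sertoli cell marker list.

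The genes most like each member over the 11 arrays were found among 11592 candidates by Pearson's r of log2 signals, given as a description. Inhbb was most like Gpm6b (r = 0.998), Vxn (0.997) and Tdrp (0.996), and Inha like Tmem184a (0.989), Defb19 (0.986) and Acta2 (0.986), the last a smooth muscle actin gene that is itself a myoid cell marker. Amh was nearest to Gm9112 (0.979), Amhr2 to Htatsf1 (0.987) and Fstl3 to Ccn5 (0.967). Of the genes called higher in RT than in ST, Acvr2a was nearest to Efemp1 (0.989), Acvr1b to Trp53bp2 (0.974) and Inhba to Haghl (0.962). Acvr2b, which was not called there, was nearest to Letm2 (0.929). The arrays of a region share its pieces, so that any gene differing strongly among regions gives a high r.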

How the data were processed

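RNA was hybridized by the authors to Affymetrix mouse expression arrays, and the deposited intensity values are MAS5 signals on a linear scale, scaled per array (median 65.8 to 110.4). The number of arrays limits the precision. The genome build behind the probe annotation is not given in the sources used here.

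Symbols came from the platform annotation: 34958 probe sets carry 1 symbol, 932 several and 9211 none, and 34754 of the first matched RefSeq by Entrez ID, including all 10 members. Log2 signals of all 11 arrays, with no filter or constant, were fitted with limma 3.58.1 (lmFit, eBayes with trend) in R 4.3.3, and p-values were adjusted by Benjamini-Hochberg over 45101 probe sets. Standard errors are those of the fit, and SDs are between arrays. Actb 3′ over 5′ was 1.31 to 1.43 in replicates 1 and 2 and 1.73 to 2.12 in replicates 3 and 4. These groups of replicates are called sets below, a split that the labels do not give. The fit was tested on simulated data with independent noise between arrays. The planted changes were larger than those of the calls near 2-fold, which the simulation therefore does not cover.

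All members and their probe sets are named, with up to 4 called genes per pathway list, comparison and direction (Id3 was added as the fifth), up to 3 genes most like a member, and up to 4 markers per list. Genes described as not called were named after their values were seen. Members and lists were chosen with earlier results of these data known. RefSeq windows (GRCm38.p6) of 250 bases before the start were found for 8 of 10 members, without Amh and Fst. Results were recomputed with each array removed, with the methods' t-test, without the third region, with quantile and median scaling, with log2(signal + 32) or a minimum signal of 32, without dim probe sets, without the eBayes trend, with blocks for replicate number or set, within each set, on leading probe sets, and by p alone. Plots used matplotlib 3.10.9 under Python 3.11.15. Efferent duct, Leydig, myoid, macrophage, endothelial, mesothelium and germ cell marker lists were also counted. The study's in situ hybridization, staining, qRT-PCR, transplantation and bead experiments were not analysed here.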

Additional observations from a re-analysis of the deposited data

Results flagged for a closer look

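Dixon's criterion was applied to the member probe sets in the groups of 4 arrays. Of 38 groups tested, 2 were flagged, about the number that chance alone gives (1 in 20 groups). In the leading probe set of Amhr2, SV 3 stood apart at 37714, with the other SV arrays at 27300 to 27400 (gap over range 0.981). In that of Acvr1b, ST 2 stood apart at 455, with the other ST arrays at 620 to 642 (gap over range 0.897).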

How the results depend on the processing

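Counts of member probe sets called moved in the following settings. In SV against ST, 0 instead of 1 were higher by the adjusted methods' t-test and with replicates 3 and 4 alone (which leave 1 RT array, taken to vary as the rest do). In RT against ST, instead of 3 higher and 5 lower, there were 5 higher by the methods' unadjusted t-test on log2 or linear signal and with replicates 1 and 2 alone, 0 with median centring, 1 with replicates 3 and 4 alone, and 7 lower with median centring, 2 with replicates 3 and 4 alone and 3 with 1 probe set per gene. In SV against RT, instead of 6 higher and 3 lower, there were 2 and 1 by the adjusted t-test, 0 and 0 with replicates 3 and 4 alone, and lower counts of 1 with quantile normalization or log2(signal + 32), 0 with median centring and 5 without a fold threshold. The F-test passed 0 with replicates 3 and 4 alone, against 12. Leaving out 1 array gave 2 to 4 higher and 5 to 6 lower in RT against ST, 4 to 6 higher and 0 to 2 lower in SV against RT, 10 to 14 by the F-test, and 1 higher and 0 lower in SV against ST. Of the pathway genes, median centring gave 4 higher and 6 lower in RT against ST. With the replicate number as a block, 5 member probe sets were higher in RT than in ST and 1 pathway gene was lower in SV than in ST. Same-numbered arrays correlated at 0.0692 to 0.19 after region means were removed. Other numbers of the same set correlated at 0.0698 to 0.178, so the numbers were not taken as pairs. Arrays of different sets correlated at -0.179 to -0.0761, and the main fit has no term for set. Among the leading probe sets, in the settings named here, signs turned for Acvr1b in SV against ST (-0.01 with quantile normalization, -0.09 with median centring, -0.01 with replicates 1 and 2 alone, -0.1 to 0.08 leaving out 1 array), for Fstl3 in RT against ST (0.19 with replicates 3 and 4 alone), and for Fst in RT against ST (0.08 as deposited, but -0.19 after quantile and -0.34 after median scaling) and SV against RT (0.40 as deposited, -0.05 with replicates 3 and 4 alone), none of them called. The share of all calls that were higher was 65.1% in RT against ST as deposited, 49.6% after quantile and 34.9% after median scaling. For SV against RT these shares were 37.2%, 52.6% and 66.8%. The causes were not tested.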
